A study of Mus musculus with 12 samples.

Results

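The genes described here are the matrix metalloproteinases (Mmp), the ADAM and ADAMTS proteases and the tissue inhibitors of metalloproteinases (Timp) of mouse liver. They are all symbols of the deposited count table made of Mmp, Timp, Adam or Adamts, a number and at most 1 letter. The rule found 69 of 25540 symbols, of which 20 are Mmp, 4 Timp, 27 Adam and 18 Adamts genes. Of these 69, 47 held enough counts to be tested and 22 did not. The highest count of an untested member in any library was 18, and Adam18 had no count at all.

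Polyadenylated liver RNA was sequenced from BALB/c mice given injections of iExos, a word taken to mean exosomes because the series title uses that term and places the study in liver fibrosis. The 4 groups of 3 libraries were siSTAT3 iExos, siCntrl iExos, mASO STAT3 iExos and mASO Scrbl iExos, so every mouse received iExos and the groups differed in the load named. The siRNA arm compares siSTAT3 with siCntrl, and the mASO arm compares mASO STAT3 with mASO Scrbl. The prefix si usually stands for small interfering RNA and ASO for antisense oligonucleotide, while no label explains the m. The labels state neither the age of the mice, the dose, the time, the origin of the iExos nor whether the livers were injured, and libraries of uninjected livers were not analysed here. Nothing says that the libraries of a group came from separate animals, so a p-value here reflects library-to-library spread that could be technical.

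Library totals ran from 39844158 to 67791159 counts, and the 69 genes took 0.0331% to 0.107% of them. Stat3, the gene named as the target, lay between 88.2 and 122 CPM in all 12 libraries, with overlap in both arms, so its RNA does not check the labels. Hepatocyte markers were present throughout, with Alb and the other genes of that list summing to between 48547 and 158330.0 CPM. Levels below are CPM, counts scaled to a common total and corrected for composition with edgeR's TMM factors. Changes are log2 fold changes ± SE of the group labelled STAT3 over its own control, from edgeR's quasi-likelihood test with Benjamini-Hochberg adjustment over the 15720 genes tested, and a gene is said to rise or fall where adjusted p is under 0.05.

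Matrix metalloproteinases are zinc proteases that cut collagens, elastin and other matrix proteins. ADAMs are membrane proteases that shed growth factors and receptors from cell surfaces, and ADAMTS proteases are secreted and cut proteoglycans, procollagens and von Willebrand factor. TIMPs bind these enzymes and block them, Timp3 also blocks several ADAM and ADAMTS enzymes, and in fibrotic liver TIMP1 is known as a product of activated stellate cells.

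Lower transcript levels prevailed among the proteases and their inhibitors in both groups labelled STAT3. In the siRNA arm 31 of the 47 tested members fell, 4 rose and 12 did not pass the test. Over all genes tested 23.4% fell and 22.4% rose, and 45.7% were called in either direction, against 74.5% of the members. The median log2 fold change of the 47 members was −1.49, against −0.04 for all genes tested. For mASO STAT3 against mASO Scrbl, 28 members fell, 5 rose and 14 did not pass, so that 70.2% were called, against 43.8% of all genes tested, of which 22.5% fell and 21.3% rose. The median of the members was −0.92 there, against −0.05 for all genes tested. When libraries were scaled by their totals alone, the median of all genes tested moved to −0.53 and −0.63, and the members split into 4 higher and 36 lower in the siRNA arm and into 4 higher and 32 lower in the mASO arm. The share of higher genes among all calls was then 18.6% and 16.1%, against 48.9% and 48.6% with TMM factors.

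A total of 29 members passed in both arms, each with the same sign in both, of which 25 were lower and 4 were higher. Over all genes tested, 45.7% and 43.8% were called in the 2 arms. The share called in both with the same sign was not counted, so this agreement is not read as particular to the members. Of the 47 tested members, 41 would have passed the filter on low counts from the 6 libraries labelled STAT3 alone. The other 6, Mmp3, Mmp10, Mmp24, Mmp28, Adam1a and Adamts4, passed only through their counts in the controls. Their mean levels were higher there in both arms, apart from Adam1a in the mASO arm. Over the 41 alone, 27 fell and 4 rose in the siRNA arm, so that 75.6% were called, with a median of −1.34, and 23 fell and 5 rose in the mASO arm, so that 68.3% were called, with a median of −0.71. Among the 14492 genes of the whole table that pass from those libraries alone, 46.5% and 44.8% were called in the 2 arms, with medians of 0.02 and −0.01. By family, 11 of 17 Mmp genes fell and 1 rose in the siRNA arm, with 12 lower and 1 higher in the mASO arm. Of 14 tested Adam genes 10 fell and 1 rose in the siRNA arm, and 8 fell and 2 rose in the mASO arm. Among 13 tested Adamts genes 8 fell and 2 rose in the siRNA arm, with 6 lower and 2 higher in the mASO arm. These family counts include the 6 members that passed only through the controls, of which 4 are Mmp, 1 Adam and 1 Adamts genes. Over all genes tested, 23.4% fell and 22.4% rose in the siRNA arm, and 22.5% fell and 21.3% rose in the mASO arm.

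**Figure D1:**
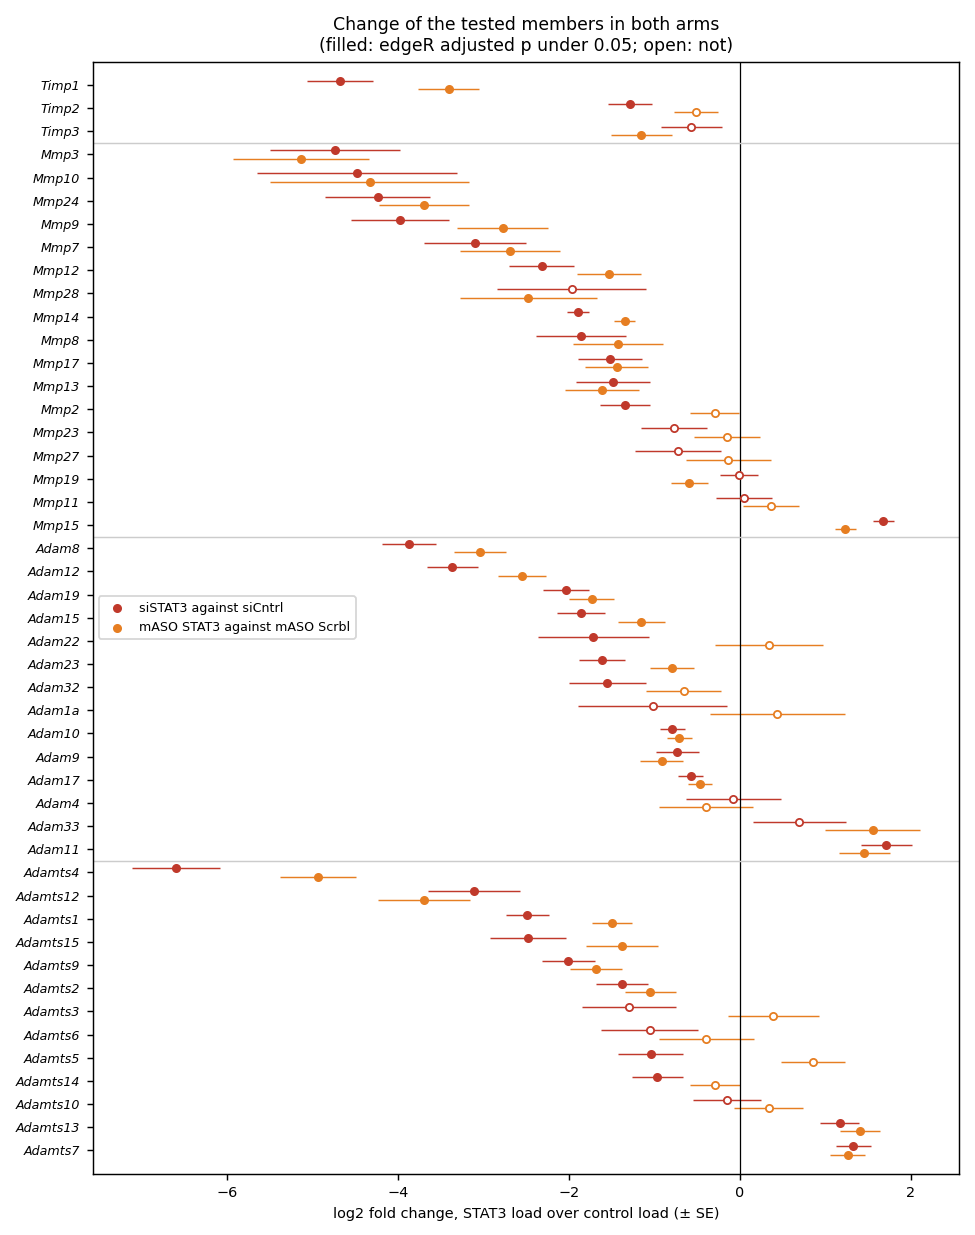
Log2 fold change of each of the 47 tested members, STAT3 load over control load, with bars of 1 SE, grouped from top to bottom as Timp, Mmp, Adam and Adamts. Most points lie left of 0 in both arms, from −6.60 for Adamts4 up to 1.72 for Adam11 in the siRNA arm, and the fitted values of Mmp3 and Mmp10 rest on 1 to 3 counts in the groups labelled STAT3.

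Among the inhibitors, Timp1 fell in both arms. It had 1.09, 0.669 and 0.614 CPM in the siSTAT3 libraries, against 13.2, 24 and 24.7 CPM in siCntrl (log2 fold change −4.68 ± 0.39, adjusted p = 1.02e-06). Its mASO levels were 1.53, 0.989 and 1.09 CPM in the mASO STAT3 libraries, against 10.2, 8.7 and 19.2 CPM in mASO Scrbl (log2 fold change −3.41 ± 0.36, adjusted p = 8.07e-06). All 6 libraries labelled STAT3 lay below all 6 controls. The fitted change was 25.6-fold lower in siSTAT3 and 10.6-fold lower in mASO STAT3.

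Timp2, which blocks MMP2 and also takes part in its activation, had 26.2, 21.2 and 26 CPM in the siSTAT3 libraries, against 40.2, 74.5 and 64.5 CPM in siCntrl (log2 fold change −1.29 ± 0.26, adjusted p = 0.00138). Under the mASO loads it had 26.8, 35 and 24.3 CPM in the mASO STAT3 libraries, against 35.6, 29.9 and 57.5 CPM in mASO Scrbl (log2 fold change −0.51 ± 0.26, adjusted p = 0.121). The siRNA groups did not overlap, while the mASO groups did, since mASO STAT3 2 lay above mASO Scrbl 2. With scaling by library totals alone Timp2 passed in the mASO arm too, at −1.08, and over the alternatives its adjusted p there ran from 0.00572 to 0.552.

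Timp3, a matrix-bound inhibitor, had 6.16, 2.62 and 9.06 CPM in the siSTAT3 libraries, against 9.73, 8.7 and 7.97 CPM in siCntrl (log2 fold change −0.57 ± 0.36, adjusted p = 0.214). The mASO groups gave 3.89, 6.94 and 4.93 CPM in the mASO STAT3 libraries, against 10.4, 9.03 and 15.7 CPM in mASO Scrbl (log2 fold change −1.15 ± 0.36, adjusted p = 0.0197). Its siRNA groups overlapped and its mASO groups did not. The mASO call was lost without mASO STAT3 1, mASO STAT3 3 or mASO Scrbl 3, with adjusted p between 0.00177 and 0.0845 over the alternatives. The siRNA arm passed without siSTAT3 3, at −1.0, and with library totals alone, at −1.06, with adjusted p between 0.0284 and 0.576. Timp4 was not tested, with 0 counts in siSTAT3, 8 in siCntrl, 0 in mASO STAT3 and 5 in mASO Scrbl, all over 3 libraries. With 3 counts over the group as the limit that a count of 0 allows, the siCntrl level was 1.49 times the siSTAT3 limit. That ratio leaves out the error of the siCntrl counts and the spread between libraries. In the edgeR fit with no filter, adjusted p of Timp4 was 0.141 in the siRNA arm and 0.241 in the mASO arm. A difference was thus not detectable in either arm at this depth.

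Timp1, Timp3 and Timp4 lie inside Syn1, Syn3 and Syn2 in the RefSeq annotation, and no source used here says whether counting used strand. Those host genes had 12 to 94, 9 to 53 and 0 to 12 counts in any library.

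**Figure D2:**
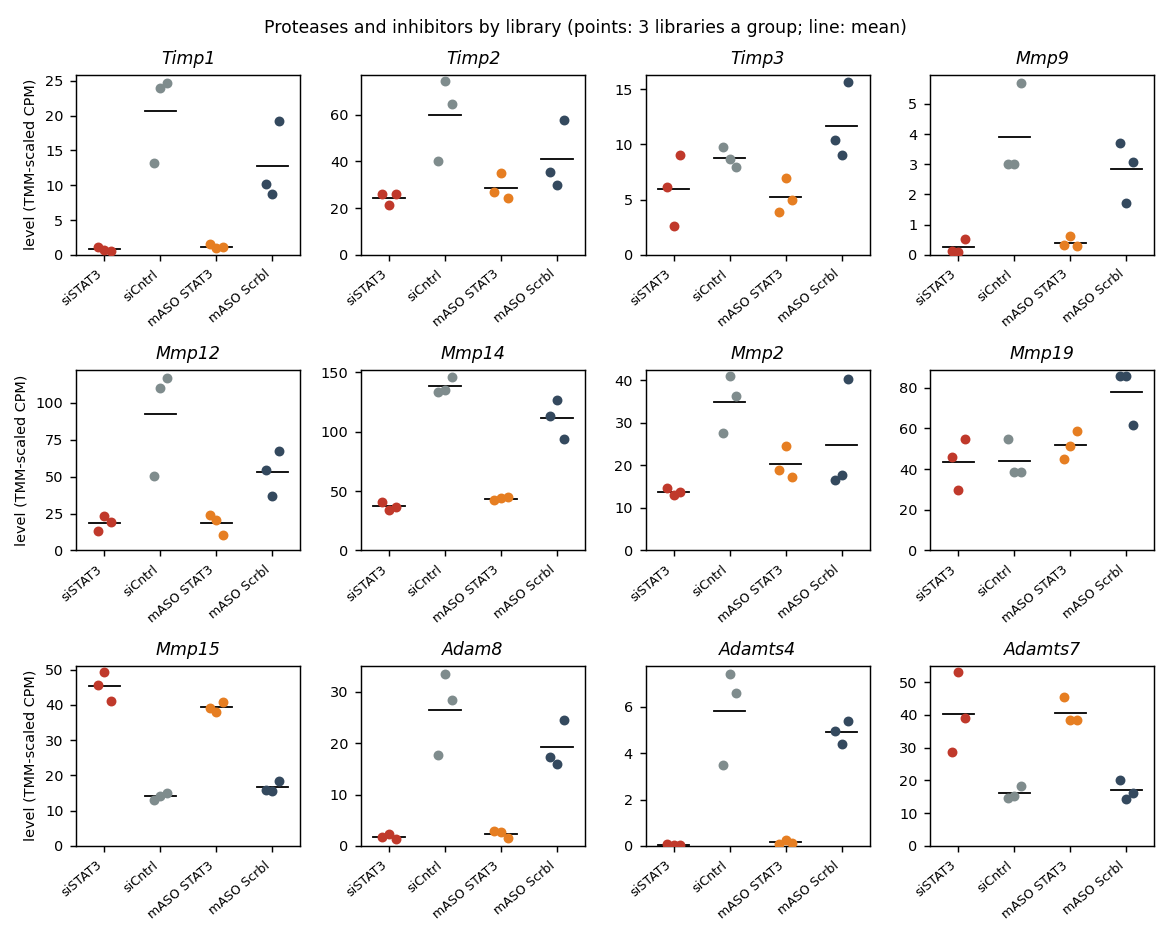
TMM-scaled CPM of 12 members in each library, with the mean of 3 libraries as a line and the vertical axis starting at 0. Timp1, Mmp9, Mmp12, Mmp14, Adam8 and Adamts4 are lower in all 6 libraries labelled STAT3 than in all 6 controls, Mmp15 and Adamts7 are higher in all 6, and Timp2, Timp3, Mmp2 and Mmp19 overlap in 1 arm.

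The gelatinases, which cut denatured collagen and basement membrane collagen, are Mmp2 and Mmp9. Mmp2 had 14.6, 13.1 and 13.7 CPM in the siSTAT3 libraries, against 27.7, 41.1 and 36.3 CPM in siCntrl (log2 fold change −1.34 ± 0.30, adjusted p = 0.00256). In the mASO arm it had 18.9, 24.6 and 17.3 CPM in the mASO STAT3 libraries, against 16.6, 17.7 and 40.4 CPM in mASO Scrbl (log2 fold change −0.30 ± 0.29, adjusted p = 0.435). The siRNA groups were apart, while mASO Scrbl 1 lay below every mASO STAT3 library and mASO Scrbl 3 above them all. With library totals alone Mmp2 also passed in the mASO arm, at −0.86, with adjusted p between 0.0298 and 0.678 over the alternatives.

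Mmp9, a gelatinase of neutrophils and macrophages, had 0.144, 0.103 and 0.522 CPM in the siSTAT3 libraries, against 3.0, 3.02 and 5.69 CPM in siCntrl (log2 fold change −3.98 ± 0.58, adjusted p = 9.41e-05). Its mASO levels were 0.320, 0.627 and 0.282 CPM in the mASO STAT3 libraries, against 3.7, 1.72 and 3.08 CPM in mASO Scrbl (log2 fold change −2.77 ± 0.53, adjusted p = 0.000859). All libraries labelled STAT3 lay below all controls. The level in siSTAT3 3 was above that of the other siSTAT3 libraries, and the siRNA change was −4.95 without it.

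The membrane-type enzymes are anchored at the cell surface, and Mmp14 is the known activator of pro-MMP2. Mmp14 had 40.7, 34.2 and 36.9 CPM in the siSTAT3 libraries, against 133, 135 and 146 CPM in siCntrl (log2 fold change −1.89 ± 0.13, adjusted p = 1.84e-07). Under the mASO loads it had 42.3, 43.9 and 45 CPM in the mASO STAT3 libraries, against 114, 126 and 94.2 CPM in mASO Scrbl (log2 fold change −1.35 ± 0.13, adjusted p = 2.41e-06). Both groups labelled STAT3 were tight and far below their controls. Mmp15, another membrane-type enzyme, rose. It had 45.6, 49.3 and 41 CPM in the siSTAT3 libraries, against 13, 14.2 and 15.2 CPM in siCntrl (log2 fold change 1.68 ± 0.12, adjusted p = 3.22e-07). The mASO groups gave 39.1, 37.9 and 40.8 CPM in the mASO STAT3 libraries, against 15.9, 15.7 and 18.5 CPM in mASO Scrbl (log2 fold change 1.24 ± 0.12, adjusted p = 3.86e-06). It was the only one of the 17 tested Mmp genes to rise, and every library labelled STAT3 lay above every control. Its direction and call held under every alternative that gave a value, library totals alone included.

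Mmp17 and Mmp24, the other membrane-type enzymes with enough counts, fell. Mmp17 had 0.760, 0.591 and 0.952 CPM in the siSTAT3 libraries, against 2.41, 2.04 and 2.15 CPM in siCntrl (log2 fold change −1.52 ± 0.38, adjusted p = 0.00474), and 0.738, 0.989 and 0.543 CPM in the mASO STAT3 libraries, against 1.97, 1.22 and 3.0 CPM in mASO Scrbl (log2 fold change −1.44 ± 0.37, adjusted p = 0.00650). Mmp24 had 0.0822, 0.0257 and 0 CPM in the siSTAT3 libraries, against 0.693, 0.948 and 0.747 CPM in siCntrl (log2 fold change −4.24 ± 0.62, adjusted p = 9.65e-05), and 0.123, 0.171 and 0.101 CPM in the mASO STAT3 libraries, against 1.3, 2.07 and 1.86 CPM in mASO Scrbl (log2 fold change −3.70 ± 0.52, adjusted p = 8.04e-05). Neither gene overlapped between the groups of an arm. Mmp24 rests on few counts, and its siRNA change was −5.65 without siSTAT3 1. It passed the filter on low counts only through the controls. Mmp16 and Mmp25 were not tested.

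Mmp12, the macrophage elastase, had 13.2, 23.1 and 19.4 CPM in the siSTAT3 libraries, against 50.5, 110.0 and 117 CPM in siCntrl (log2 fold change −2.32 ± 0.38, adjusted p = 0.000447). In the mASO arm it had 24, 20.5 and 10.7 CPM in the mASO STAT3 libraries, against 54.7, 37.1 and 67.3 CPM in mASO Scrbl (log2 fold change −1.53 ± 0.37, adjusted p = 0.00583). No library labelled STAT3 reached its controls, of which siCntrl 1 was well below the other siCntrl libraries. Mmp7, the matrilysin of epithelial cells, had 0.431, 0.437 and 0.0922 CPM in the siSTAT3 libraries, against 1.25, 4.51 and 2.7 CPM in siCntrl (log2 fold change −3.10 ± 0.60, adjusted p = 0.000851), and 0.468, 0.133 and 0.403 CPM in the mASO STAT3 libraries, against 2.19, 2.51 and 1.76 CPM in mASO Scrbl (log2 fold change −2.69 ± 0.58, adjusted p = 0.00212). Its groups did not overlap in either arm, and its mASO change was −3.29 with library totals alone.

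The collagenases cut intact fibrillar collagen, and Mmp13 is the main one of mouse tissue. Mmp13 had 0.760, 0.720 and 1.23 CPM in the siSTAT3 libraries, against 1.2, 2.08 and 4.28 CPM in siCntrl (log2 fold change −1.49 ± 0.43, adjusted p = 0.0127). Its mASO levels were 0.861, 0.627 and 0.664 CPM in the mASO STAT3 libraries, against 2.52, 2.43 and 1.62 CPM in mASO Scrbl (log2 fold change −1.61 ± 0.44, adjusted p = 0.00847). The siRNA groups overlapped, since siSTAT3 3 lay above siCntrl 1, and the mASO groups did not. Without siCntrl 3, its highest library, the siRNA change was −0.87 and did not pass, with adjusted p between 0.00176 and 0.0988 over the alternatives. Mmp8, the neutrophil collagenase, had 0.370, 0.720 and 0.154 CPM in the siSTAT3 libraries, against 0.893, 1.91 and 1.77 CPM in siCntrl (log2 fold change −1.86 ± 0.53, adjusted p = 0.0111), and 0.468, 0.418 and 0.262 CPM in the mASO STAT3 libraries, against 1.37, 0.618 and 1.09 CPM in mASO Scrbl (log2 fold change −1.42 ± 0.53, adjusted p = 0.0410). Its groups were apart in both arms. The siRNA change was −2.49 without siSTAT3 2, and the mASO call was lost under limma voom, with the replicate block and without any 1 of the mASO libraries other than mASO Scrbl 2, with adjusted p from 0.00603 to 0.137.

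The stromelysins Mmp3 and Mmp10, which cut proteoglycans and activate other MMPs, were close to absent under both STAT3 loads. Mmp3 had 2, 0 and 1 counts in the siSTAT3 libraries, against 36, 36 and 80 counts in siCntrl. It had 1, 1 and 0 counts in mASO STAT3, against 44, 48 and 47 counts in mASO Scrbl. Its ratio of siCntrl to siSTAT3 was 28.4 (95% counting interval 9.54 to 139), and that of mASO Scrbl to mASO STAT3 was 40.4 (11 to 337). Both differences passed the test (adjusted p = 0.000209 and 0.000170). Mmp10 had 1 count over the siSTAT3 libraries against 49 over siCntrl, a ratio of siCntrl to siSTAT3 of 27.5 (4.70 to 1107). It had 1 count over mASO STAT3 against 45 over mASO Scrbl, a ratio of mASO Scrbl to mASO STAT3 of 26.2 (4.46 to 1056). Both differences passed (adjusted p = 0.00665 and 0.00802). Mmp3 and Mmp10 passed the filter on low counts only through the controls, where they were high, so their calls are no separate support for a fall. The fitted log2 fold changes of both genes depend on these few counts. That of Mmp10 in the siRNA arm was −4.48, against −3.43 with limma voom, −3.59 without siCntrl 3, −3.88 without siSTAT3 1 and −6.86 without siSTAT3 2. Its mASO change was −4.33, against −3.50 with limma voom and −6.52 without mASO STAT3 1. For Mmp3 the siRNA change was −4.74, against −5.47 without siSTAT3 1. The intervals cover counting error only, and close paralogs among these genes make their split uncertain. Mmp11, called a stromelysin though it stands apart by sequence, passed in neither arm (0.05 ± 0.33 and 0.36 ± 0.33).

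Mmp3, Mmp7, Mmp8, Mmp10, Mmp12, Mmp13 and Mmp27 neighbour one another on mouse chromosome 9. Of these 7 genes, 6 fell in both arms and Mmp27 passed in neither (−0.72 ± 0.50 and −0.13 ± 0.49). Over all genes tested 23.4% fell in the siRNA arm and 22.5% in the mASO arm, and the share lower in both was not counted. Mmp3 and Mmp10 passed the filter on low counts only through the controls. The mASO call of Mmp8 and the siRNA call of Mmp13 were lost under alternatives given above. Promoters of this cluster are known for a site of the AP-1 factors, so the 120 bases before the start of the genes that hold one are shown, from the RefSeq promoter table on build GRCm38.p6, plus strand. Capitals mark the match to TGANTCA, which reads the same on both strands.
Mmp13 (chr9:7272394-7272513): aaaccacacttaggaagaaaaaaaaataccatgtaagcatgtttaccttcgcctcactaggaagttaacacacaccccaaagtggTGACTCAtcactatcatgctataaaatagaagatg
Mmp12 (chr9:7347254-7347373): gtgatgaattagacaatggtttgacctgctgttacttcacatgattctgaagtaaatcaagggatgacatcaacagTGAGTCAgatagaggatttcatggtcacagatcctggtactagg
Mmp3 (chr9:7445702-7445821): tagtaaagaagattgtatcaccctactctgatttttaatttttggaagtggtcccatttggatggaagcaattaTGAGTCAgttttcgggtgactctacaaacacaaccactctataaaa
Mmp10 (chr9:7502222-7502341): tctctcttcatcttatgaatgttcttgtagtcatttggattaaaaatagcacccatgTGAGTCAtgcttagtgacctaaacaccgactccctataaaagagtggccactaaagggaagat
Mmp7 (chr9:7691970-7692089): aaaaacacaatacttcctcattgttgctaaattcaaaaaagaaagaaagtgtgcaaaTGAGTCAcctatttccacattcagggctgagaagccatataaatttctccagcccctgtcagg
The match begins 35, 44, 46, 63 and 63 bases before the start of Mmp13, Mmp12, Mmp3, Mmp10 and Mmp7. Mmp12 and Mmp7 have 2 windows each in that table, of which 1 holds the motif. Counting a gene once if any of its windows holds the motif in the 250 bases before the start, it was found for 5 of these 7 genes and for 8 of the 40 members with a window, against 7.82% of all 27025 genes in the table. The 8 are the 5 genes shown, with Adam19, Adam25 and Adam29, and the cluster was looked at because such sites are known there. Mmp8 and Mmp27 have no match in this window. The motif TTCNNNGAA, the usual form of a STAT site, which also reads the same on both strands, was found for 0 of the 7 genes and for 2 of the 40, Mmp23 and Adam21, against 8.13% of all genes, counted in the same way. A match is a run of letters, not a measured site.

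Mmp19, a secreted enzyme that cuts basement membrane proteins, was high in every group. It had 45.9, 29.9 and 54.9 CPM in the siSTAT3 libraries, against 54.5, 38.6 and 38.3 CPM in siCntrl (log2 fold change −0.01 ± 0.22, adjusted p = 0.978). Under the mASO loads it had 44.8, 51.5 and 58.6 CPM in the mASO STAT3 libraries, against 85.8, 85.7 and 61.6 CPM in mASO Scrbl (log2 fold change −0.59 ± 0.22, adjusted p = 0.0412). The siRNA groups overlapped and the mASO groups did not. The mASO call was lost with the replicate block and without any 1 of mASO STAT3 1, mASO STAT3 2, mASO Scrbl 1 or mASO Scrbl 2, with adjusted p from 0.000447 to 0.139. Mmp28, the enzyme epilysin, with under 1 CPM in all libraries, passed in the mASO arm (−2.47 ± 0.80, adjusted p = 0.0226) and had −1.97 ± 0.87 in the siRNA arm (adjusted p = 0.0808). Its mASO call was lost without mASO STAT3 2, mASO STAT3 3 or mASO Scrbl 1 and its change was −3.25 without mASO STAT3 1, while its siRNA arm passed under limma voom, with library totals alone and without siSTAT3 3. Mmp28 passed the filter on low counts only through the controls. Mmp23 passed in neither arm (−0.77 ± 0.39 and −0.15 ± 0.39), except with library totals alone in the siRNA arm, at −1.28.

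Among the ADAMs with an active protease domain, the leukocyte sheddase Adam8 changed by the largest fitted log2 value in both arms. Adam8 had 1.81, 2.26 and 1.32 CPM in the siSTAT3 libraries, against 17.7, 33.5 and 28.4 CPM in siCntrl (log2 fold change −3.88 ± 0.32, adjusted p = 8.2e-07). The mASO groups gave 2.85, 2.66 and 1.53 CPM in the mASO STAT3 libraries, against 17.3, 16 and 24.5 CPM in mASO Scrbl (log2 fold change −3.04 ± 0.30, adjusted p = 4.48e-06). No library labelled STAT3 came near its control range. Adam12, a protease of mesenchymal cells that is known to be induced in activated stellate cells, had 0.431, 0.489 and 0.491 CPM in the siSTAT3 libraries, against 4.49, 5.4 and 4.68 CPM in siCntrl (log2 fold change −3.37 ± 0.30, adjusted p = 1.38e-06). In the mASO arm it had 0.566, 0.684 and 0.825 CPM in the mASO STAT3 libraries, against 3.98, 2.96 and 5.3 CPM in mASO Scrbl (log2 fold change −2.55 ± 0.28, adjusted p = 9.02e-06). Its groups were apart in both arms, with little spread in siSTAT3.

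Adam19 and Adam15 also fell. Adam19, a relative of Adam12, had 0.863, 1.41 and 1.08 CPM in the siSTAT3 libraries, against 5.04, 4.04 and 4.65 CPM in siCntrl (log2 fold change −2.04 ± 0.27, adjusted p = 4.26e-05), and 1.11, 1.16 and 1.11 CPM in the mASO STAT3 libraries, against 3.92, 2.86 and 4.47 CPM in mASO Scrbl (log2 fold change −1.73 ± 0.26, adjusted p = 0.000142). Adam15, known from endothelial cell junctions, had 2.98, 4.96 and 3.47 CPM in the siSTAT3 libraries, against 10.2, 18.2 and 13.1 CPM in siCntrl (log2 fold change −1.86 ± 0.28, adjusted p = 0.000131), and 5.07, 6.01 and 3.32 CPM in the mASO STAT3 libraries, against 10.3, 8.9 and 12.8 CPM in mASO Scrbl (log2 fold change −1.15 ± 0.27, adjusted p = 0.00382). Neither overlapped between the groups of an arm.

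The broadly expressed sheddases Adam9, Adam10 and Adam17 fell by less. Adam10, which cuts Notch receptors and many other surface proteins, had 26.2, 22.6 and 32.9 CPM in the siSTAT3 libraries, against 43.7, 54 and 43.6 CPM in siCntrl (log2 fold change −0.79 ± 0.15, adjusted p = 0.000651), and 28, 28.6 and 30.3 CPM in the mASO STAT3 libraries, against 46.7, 51.1 and 44.3 CPM in mASO Scrbl (log2 fold change −0.71 ± 0.15, adjusted p = 0.00145). Adam17, the protease that releases TNF and the EGF receptor ligands, had 19.9, 13.9 and 20.3 CPM in the siSTAT3 libraries, against 26.9, 28.3 and 25.6 CPM in siCntrl (log2 fold change −0.57 ± 0.14, adjusted p = 0.00508), and 19, 19.3 and 21.3 CPM in the mASO STAT3 libraries, against 27.8, 28.3 and 26.3 CPM in mASO Scrbl (log2 fold change −0.47 ± 0.14, adjusted p = 0.0169). Adam9 had 62.5, 28.9 and 62.2 CPM in the siSTAT3 libraries, against 105, 76.5 and 73.3 CPM in siCntrl (log2 fold change −0.73 ± 0.25, adjusted p = 0.0294), and 41, 53.4 and 58.1 CPM in the mASO STAT3 libraries, against 102, 98.2 and 87.6 CPM in mASO Scrbl (log2 fold change −0.92 ± 0.25, adjusted p = 0.00964). All 3 genes were lower in every library labelled STAT3 than in the controls of its arm. The mASO call of Adam17 was lost without mASO STAT3 1 or mASO STAT3 2 (adjusted p from 9.02e-05 to 0.0619 over the alternatives). The siRNA call of Adam9 was lost without siCntrl 1, at −0.55, without siSTAT3 2, at −0.44, and in a fit of the 6 siRNA libraries alone (adjusted p from 0.00144 to 0.116). Adam33, a protease of smooth muscle, rose in the mASO arm, with 0.665, 1.83 and 0.926 CPM in the mASO STAT3 libraries, against 0.388, 0.230 and 0.545 CPM in mASO Scrbl (log2 fold change 1.55 ± 0.56, adjusted p = 0.0355). Its siRNA change was 0.70 ± 0.54 (adjusted p = 0.314), and its mASO call was lost with the replicate block, with library totals alone and without any 1 of mASO STAT3 2, mASO STAT3 3, mASO Scrbl 1 or mASO Scrbl 2 (adjusted p from 0.0135 to 0.181). Adam28 was not tested.

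Adam11, Adam22 and Adam23 lack an active protease site and act as adhesion or receptor proteins, chiefly known from neurons. Adam11 rose, with 23.9, 40.9 and 27.6 CPM in the siSTAT3 libraries, against 4.85, 11.6 and 11.6 CPM in siCntrl (log2 fold change 1.72 ± 0.30, adjusted p = 0.000501), and 29.5, 23.2 and 18.9 CPM in the mASO STAT3 libraries, against 8.42, 8.74 and 8.84 CPM in mASO Scrbl (log2 fold change 1.46 ± 0.30, adjusted p = 0.00159). Adam23 fell, with 6.7, 4.99 and 10.1 CPM in the siSTAT3 libraries, against 16.9, 24.3 and 25.4 CPM in siCntrl (log2 fold change −1.61 ± 0.26, adjusted p = 0.000261), and 9.65, 13.6 and 8.25 CPM in the mASO STAT3 libraries, against 17.1, 15.8 and 21.6 CPM in mASO Scrbl (log2 fold change −0.79 ± 0.26, adjusted p = 0.0236). Both were apart between the groups of each arm. The mASO call of Adam23 was lost without mASO STAT3 1, mASO STAT3 3 or mASO Scrbl 3 (adjusted p from 0.00115 to 0.0971). Adam22 had 0.247, 0.0772 and 0.399 CPM in the siSTAT3 libraries, against 0.307, 1.22 and 0.833 CPM in siCntrl (log2 fold change −1.71 ± 0.65, adjusted p = 0.0449), with overlap, and that call was lost under limma voom, with the replicate block, in a fit of the siRNA libraries alone and without any 1 of siCntrl 2, siCntrl 3, siSTAT3 1 or siSTAT3 2 (adjusted p from 0.0116 to 0.183). Its change was 0.34 ± 0.63 in the mASO arm (adjusted p = 0.691). Of 15 ADAMs known chiefly from the germline, 3 were tested. Adam32 fell in the siRNA arm (log2 fold change −1.55 ± 0.45, adjusted p = 0.0128), without passing in the mASO arm (−0.66 ± 0.44). It did pass there with library totals alone, at −1.25, and its siRNA change was −2.17 without siSTAT3 2 and did not pass without siSTAT3 1, at −1.23 (adjusted p from 0.00170 to 0.0562). Adam1a and Adam4 passed in neither arm, and the split of reads among such close copies is uncertain.

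The proteoglycanases of the ADAMTS family cut aggrecan and versican. Adamts4 had 0.0822, 0.0257 and 0.0614 CPM in the siSTAT3 libraries, against 3.48, 7.41 and 6.58 CPM in siCntrl (log2 fold change −6.60 ± 0.51, adjusted p = 4.75e-07). Its mASO levels were 0.0738, 0.266 and 0.121 CPM in the mASO STAT3 libraries, against 4.95, 4.38 and 5.37 CPM in mASO Scrbl (log2 fold change −4.94 ± 0.44, adjusted p = 1.58e-06). The 3 siSTAT3 libraries held 7 counts and the 3 mASO STAT3 libraries 23, and each of the 6 controls held at least 261. The mASO change was −5.60 without mASO STAT3 2. Adamts4 had the lowest fitted change of all 47 members in the siRNA arm. It is 1 of the 6 members that passed the filter on low counts only through the controls.

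Adamts1, a versican-cutting enzyme, had 5.69, 3.47 and 4.27 CPM in the siSTAT3 libraries, against 25.3, 20.8 and 29.5 CPM in siCntrl (log2 fold change −2.49 ± 0.25, adjusted p = 3.97e-06), and 6.45, 10.4 and 5.66 CPM in the mASO STAT3 libraries, against 19.1, 21 and 23.5 CPM in mASO Scrbl (log2 fold change −1.49 ± 0.24, adjusted p = 0.000200). Adamts9 had 1.4, 2.08 and 1.63 CPM in the siSTAT3 libraries, against 5.89, 7.14 and 7.48 CPM in siCntrl (log2 fold change −2.01 ± 0.31, adjusted p = 0.000146), and 2.9, 1.25 and 1.77 CPM in the mASO STAT3 libraries, against 5.84, 5.04 and 8.06 CPM in mASO Scrbl (log2 fold change −1.68 ± 0.30, adjusted p = 0.000523). Adamts15 had 0.883, 1.65 and 0.522 CPM in the siSTAT3 libraries, against 3.17, 8.72 and 5.24 CPM in siCntrl (log2 fold change −2.48 ± 0.44, adjusted p = 0.000468), and 2.04, 1.06 and 1.35 CPM in the mASO STAT3 libraries, against 4.56, 3.66 and 3.29 CPM in mASO Scrbl (log2 fold change −1.37 ± 0.42, adjusted p = 0.0169). These 3 genes were lower in every library labelled STAT3 than in the controls of its arm. The mASO call of Adamts15 was lost without mASO STAT3 2, mASO STAT3 3 or mASO Scrbl 1 (adjusted p from 0.00169 to 0.0680), and with library totals alone the mASO changes of Adamts9 and Adamts15 were −2.27 and −1.96.

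Adamts5, the other main aggrecanase, had fitted changes of opposite sign in the arms, of which the mASO one did not pass. It had 2.67, 3.09 and 2.64 CPM in the siSTAT3 libraries, against 3.03, 8.24 and 6.06 CPM in siCntrl (log2 fold change −1.04 ± 0.38, adjusted p = 0.0375). Under the mASO loads it had 4.75, 5.93 and 3.28 CPM in the mASO STAT3 libraries, against 2.1, 1.67 and 3.94 CPM in mASO Scrbl (log2 fold change 0.86 ± 0.38, adjusted p = 0.0804). Groups overlapped in both arms. The siRNA call was lost under limma voom, with the replicate block, and without any 1 of the siRNA libraries other than siCntrl 1 (−0.70 without siCntrl 2, adjusted p from 0.00553 to 0.181), and the mASO arm passed as higher without mASO Scrbl 3, at 1.30, and under DESeq2, at 0.88 (adjusted p from 0.0173 to 0.543).

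The procollagen N-proteinases Adamts2, Adamts3 and Adamts14 trim the amino end of fibrillar procollagens. Adamts2 had 8.2, 8.8 and 9.18 CPM in the siSTAT3 libraries, against 15.5, 28.6 and 23.8 CPM in siCntrl (log2 fold change −1.38 ± 0.30, adjusted p = 0.00242), and 9.6, 12.2 and 8.01 CPM in the mASO STAT3 libraries, against 14.6, 15.1 and 32.1 CPM in mASO Scrbl (log2 fold change −1.05 ± 0.30, adjusted p = 0.0121). Adamts14 had 1.6, 1.83 and 1.17 CPM in the siSTAT3 libraries, against 3.51, 2.83 and 2.67 CPM in siCntrl (log2 fold change −0.97 ± 0.30, adjusted p = 0.0164), and 1.99, 2.09 and 1.31 CPM in the mASO STAT3 libraries, against 2.37, 1.62 and 2.59 CPM in mASO Scrbl (log2 fold change −0.29 ± 0.29, adjusted p = 0.455). Adamts2 was apart in both arms, although mASO Scrbl 3 was far above the other mASO Scrbl libraries. The mASO change of Adamts2 was −0.58 without mASO Scrbl 3 and did not pass, nor did it without mASO STAT3 3 (adjusted p from 0.000956 to 0.0677). Adamts14 lost its siRNA call without siCntrl 1 or siSTAT3 3 (adjusted p from 0.00135 to 0.0646) and passed in the mASO arm with library totals alone, at −0.85. Adamts3 did not pass (−1.30 ± 0.55 and 0.39 ± 0.53), except with library totals alone in the siRNA arm, at −1.79.

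Adamts7 and Adamts13 rose. Adamts7, which cuts cartilage oligomeric matrix protein, had 28.6, 53.1 and 39.1 CPM in the siSTAT3 libraries, against 14.6, 15.2 and 18.4 CPM in siCntrl (log2 fold change 1.33 ± 0.20, adjusted p = 0.000152), and 45.4, 38.3 and 38.3 CPM in the mASO STAT3 libraries, against 20.2, 14.4 and 16.2 CPM in mASO Scrbl (log2 fold change 1.26 ± 0.20, adjusted p = 0.000224). Adamts13, which cuts von Willebrand factor and is made by liver stellate cells, had 6.33, 6.07 and 4.67 CPM in the siSTAT3 libraries, against 2.52, 2.81 and 2.27 CPM in siCntrl (log2 fold change 1.17 ± 0.23, adjusted p = 0.00113), and 5.27, 7.03 and 4.41 CPM in the mASO STAT3 libraries, against 2.05, 2.4 and 1.83 CPM in mASO Scrbl (log2 fold change 1.41 ± 0.23, adjusted p = 0.000284). Every library labelled STAT3 lay above every control for both genes, and both kept their direction and call under every alternative that gave a value. Adamts12, a relative of Adamts7, fell, with 0.308, 0.129 and 0.215 CPM in the siSTAT3 libraries, against 3.52, 1.18 and 1.05 CPM in siCntrl (log2 fold change −3.11 ± 0.53, adjusted p = 0.000364), and 0.222, 0.152 and 0.221 CPM in the mASO STAT3 libraries, against 2.49, 1.9 and 3.37 CPM in mASO Scrbl (log2 fold change −3.70 ± 0.54, adjusted p = 0.000100). Its groups did not overlap, and the siRNA change was −2.33 without siCntrl 1. Adamts6 and Adamts10 passed in neither arm, with the exception of Adamts6 in the siRNA arm with library totals alone, at −1.51.

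**Figure D3:**
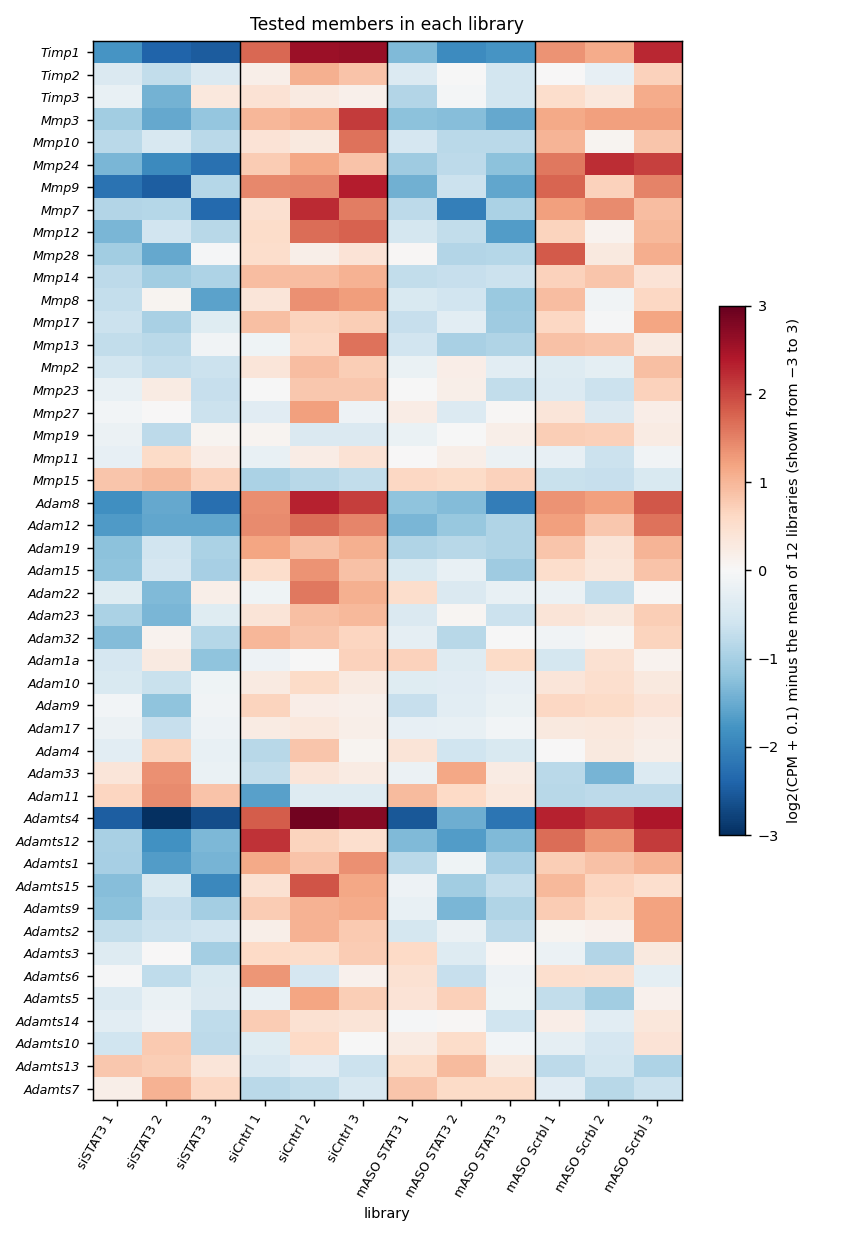
Each row is 1 of the 47 tested members and each column 1 library; colour gives log2(CPM + 0.1) minus the mean of the 12 libraries, from −3 in blue to 3 in red. The controls are mostly red and the STAT3 columns mostly blue, with the reverse in Mmp15, Adam11, Adamts7 and Adamts13.

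Beside the inhibitors, the 44 tested Mmp, Adam and Adamts genes had a median log2 fold change of −1.50 in the siRNA arm, with a range of −6.60 to 1.72, 29 lower and 4 higher. Without Adam11, Adam22 and Adam23, which lack an active protease site, the other 41 had a median of −1.49, with a range of −6.60 to 1.68, 27 lower and 3 higher. The 3 tested TIMPs had a median of −1.29, with a range of −4.68 to −0.57 and 2 lower. Being of 3 genes, the TIMP median is the value of a single gene, Timp2 in the siRNA arm and Timp3 in the mASO arm. In the mASO arm the 44 genes had a median of −0.85, with 26 lower and 5 higher, the 41 genes had a median of −1.05, with 25 lower and 4 higher, and the TIMPs had a median of −1.15, with 2 lower. All of these medians were below 0. The 6 members that passed the filter on low counts only through the controls are all proteases, with medians of −4.36 and −4.02 in the 2 arms. Their values enter the medians of the proteases and not those of the TIMPs. Summed over genes, without regard to length, Mmp levels averaged 167 ± 6.74 CPM over the siSTAT3 libraries, against 348 ± 46.2 CPM over siCntrl (SD, n = 3 each). Timp levels averaged 31.2 ± 5.92 CPM over siSTAT3, against 89.2 ± 23.1 CPM over siCntrl. In the mASO arm the Mmp sum was 182 ± 5.47 CPM over mASO STAT3, against 303 ± 4.58 CPM over mASO Scrbl, and the Timp sum was 35.1 ± 6.78 CPM over mASO STAT3, against 65.4 ± 23.8 CPM over mASO Scrbl. The log2 ratio of the Mmp sum to the Timp sum was 2.44 ± 0.234 in siSTAT3 and 1.99 ± 0.228 in siCntrl, and 2.39 ± 0.225 in mASO STAT3 and 2.27 ± 0.486 in mASO Scrbl.

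Ratios of single proteases to single inhibitors, taken within a library and so free of any scaling between libraries, did not move together. The log2 ratio of Mmp14 to Timp2 was 0.64, 0.69 and 0.50 in siSTAT3, against 1.73, 0.86 and 1.18 in siCntrl. It was 0.66, 0.33 and 0.89 in mASO STAT3, against 1.67, 2.08 and 0.71 in mASO Scrbl. It was thus lower in siSTAT3 without overlap, by 0.65 on average, and overlapped in the mASO arm.

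The log2 ratio of Mmp12 to Timp1 was 3.60, 5.11 and 4.98 in siSTAT3, against 1.93, 2.20 and 2.24 in siCntrl. It was 3.98, 4.37 and 3.29 in mASO STAT3, against 2.43, 2.09 and 1.81 in mASO Scrbl. This ratio was higher in every library labelled STAT3. The ratios of Mmp13 and of Adam10 to Timp1 were also higher without overlap. They were higher by 3.37 and 3.90 in siSTAT3 and by 1.74 and 2.63 in mASO STAT3. Mmp12, Mmp13 and Adam10 themselves fell in both arms, and their ratios share Timp1, which fell by more, so they are not separate shifts. The ratio of Mmp9 to Timp1 overlapped in both arms, with differences of 0.46 and 0.53. Mmp15 over Timp2 was higher by 2.93 in siSTAT3 and by 1.71 in mASO STAT3, without overlap. Adamts4 over Timp3 differed by −6.04 and −4.04, on 7 Adamts4 counts over siSTAT3 and 23 over mASO STAT3. Mmp2 over Timp2 and Adam17 over Timp3 differed by −0.08 and 0.14 in the siRNA arm, with overlap. In the mASO arm Mmp2 over Timp2 differed by 0.29, without overlap, and Adam17 over Timp3 by 0.69, with overlap. These ratios are of RNA counts and carry no test.

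**Figure D4:**
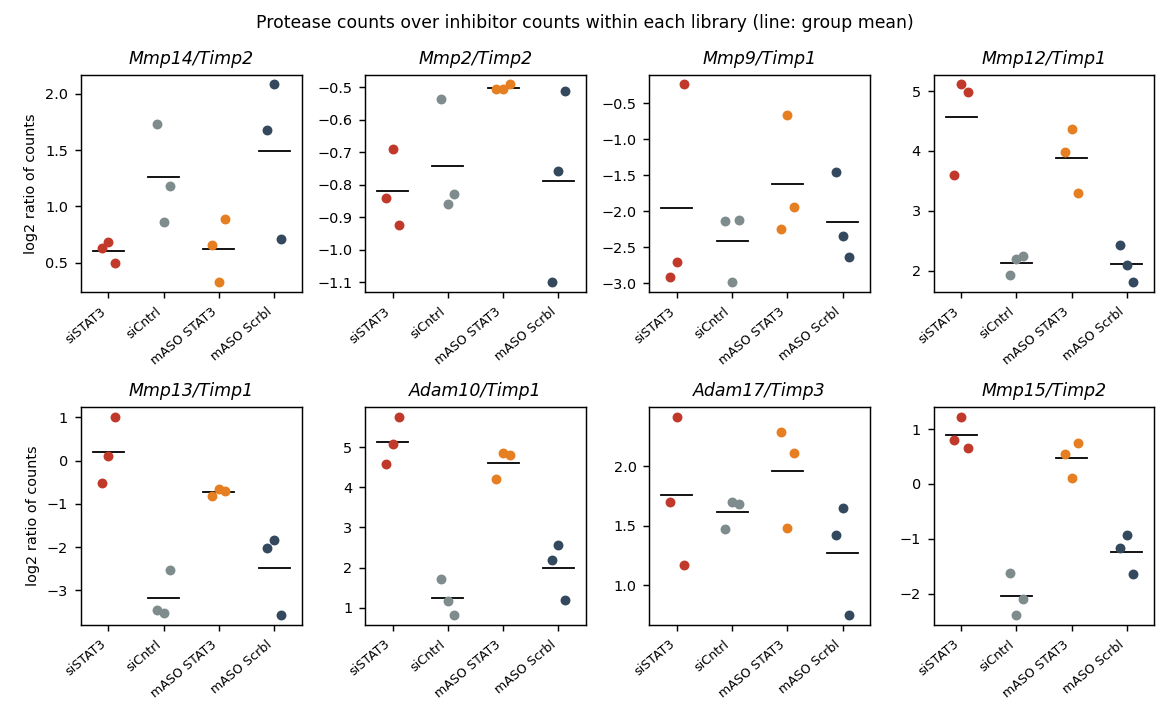
Log2 ratio of protease counts to inhibitor counts within each library for 8 pairs, with the mean of 3 libraries as a line; the vertical axes differ between panels and do not start at 0. Mmp12, Mmp13 and Adam10 over Timp1 and Mmp15 over Timp2 are higher in all libraries labelled STAT3, while Mmp9 over Timp1 and Adam17 over Timp3 overlap.

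Per kilobase of exon, the highest mean level among the 69 genes in siSTAT3 was that of Adam9, at 12.4 ± 4.69 CPM per kb, next to Mmp19 at 12.3 ± 3.59, and these did not differ beyond their spread. Mmp15 followed at 8.39 ± 0.773 CPM per kb. In siCntrl, Timp1 at 23.2 ± 7.24 and Mmp14 at 23.2 ± 1.18 CPM per kb led, followed by Adam9 at 20.6 ± 4.25. In mASO STAT3, Mmp19 stood at 14.6 ± 1.96 and Adam9 at 12.3 ± 2.15 CPM per kb, and in mASO Scrbl, Adam9 stood at 23.3 ± 1.79, Mmp19 at 22.0 ± 3.95 and Mmp14 at 18.7 ± 2.71. Timp1 was thus among the 4 highest members in both control groups and among the 12 highest in neither group labelled STAT3. Exon lengths are from GENCODE and count each annotated exon base of a gene once, over all its transcripts. The order of the members depends on that choice of length.

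The change in the mASO arm minus that in the siRNA arm passed for 0 of the 47 members with edgeR, and for 0 with DESeq2 or limma voom, against 1 gene (0.00636%) of all tested with edgeR. An unadjusted p under 0.05 was reached by 10 members, against 7.39% of all genes. The difference was above 0 for 36 members, with a median of 0.54, against −0.01 for all genes tested. It was 1.90 (95% interval 0.75 to 3.05, unadjusted p = 0.00329, adjusted p = 0.559) for Adamts5, 0.54 (95% interval 0.16 to 0.92, unadjusted p = 0.00845, adjusted p = 0.615) for Mmp14 and 1.27 (95% interval 0.19 to 2.34, unadjusted p = 0.0242, adjusted p = 0.652) for Timp1. For Mmp2 it was 1.05 (95% interval 0.16 to 1.94, unadjusted p = 0.0246, adjusted p = 0.652). For Mmp15 it was −0.45 (95% interval −0.81 to −0.08, unadjusted p = 0.0215, adjusted p = 0.645). A p that misses the threshold does not show that the arms acted alike.

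Between the controls, mASO Scrbl against siCntrl, 0 of 47 members passed with edgeR, DESeq2 or limma voom, against 2 genes (0.0127%) of all tested with edgeR, and 7 members had an unadjusted p under 0.05, against 7.85% of all genes. The same control libraries enter the changes of the arms. The median was −0.29 for the members and 0.01 for all genes tested. Mmp19 differed by 0.83 (95% interval 0.36 to 1.30, unadjusted p = 0.00210, adjusted p = 0.411), Adamts5 by −1.17 (95% interval −1.98 to −0.36, unadjusted p = 0.00798, adjusted p = 0.567) and Timp1 by −0.70 (95% interval −1.38 to −0.02, unadjusted p = 0.0448, adjusted p = 0.630). Within groups, siCntrl 1 was the lowest of the siCntrl libraries for 31 of 47 members, a share of 66.0%, against 35.1% of all genes tested, and mASO Scrbl 3 was the highest of its group for 28 members, a share of 59.6%, against 36.9% of all genes.

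Other inhibitors and regulators of these proteases moved in both directions. Of 15 tested, 9 fell and 2 rose in the siRNA arm, and 6 fell and 4 rose in the mASO arm, with medians of −0.97 and −0.28. Over all genes tested, 23.4% fell and 22.4% rose in the siRNA arm, and 22.5% fell and 21.3% rose in the mASO arm. Thbs1, a matrix protein known to bind and restrain MMPs, averaged 0.623 ± 0.208 CPM over siSTAT3, against 35.9 ± 15.7 CPM over siCntrl, a log2 fold change of −5.81 ± 0.42 (−5.27 ± 0.40 in the mASO arm). Mug1, a plasma protease trap of the macroglobulin family, rose by 1.49 ± 0.18 and 1.44 ± 0.17.

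Among 10 proprotein convertases and genes of the plasminogen system, which activate pro-MMPs, 4 rose and 4 fell in the siRNA arm, and 3 rose and 3 fell in the mASO arm. Over all genes tested, 45.7% and 43.8% were called in either direction in the 2 arms. Plg, the plasminogen of hepatocytes, rose by 1.27 ± 0.15 and 1.82 ± 0.15, and the membrane protease Hpn rose by 1.32 ± 0.15 and 1.36 ± 0.15. The activator Plau changed by −3.48 ± 0.29 and −3.05 ± 0.28 and its receptor Plaur by −3.57 ± 0.42 and −3.13 ± 0.41. Of 8 tested partners that carry or steer ADAM10 and ADAM17, 5 fell in the siRNA arm and 2 in the mASO arm. Of all genes tested, 23.4% and 22.5% fell in the 2 arms, so the mASO count is near that share. Rhbdf1 changed by −0.90 ± 0.13 and −1.35 ± 0.13. Of 4 tested Adamtsl genes, which resemble ADAMTS proteins without the protease, Adamtsl2 alone fell in both arms, by 1.70 ± 0.28 and 1.27 ± 0.28 on the log2 scale.

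The proteins these enzymes cut were often lower at the RNA level as well. All 12 tested matrix substrates fell in the siRNA arm and 9 in the mASO arm, with medians of −2.36 and −2.16. Col4a1, a basement membrane collagen, changed by −2.99 ± 0.19 and −2.72 ± 0.19, and the proteoglycan Vcan, cut by several ADAMTS enzymes, by −6.82 ± 0.61 and −5.54 ± 0.55. Of 18 tested substrates of ADAM10 and ADAM17, 9 fell and 1 rose in the siRNA arm and 8 fell in the mASO arm. Among all genes tested, 23.4% fell in the siRNA arm and 22.5% in the mASO arm. The EGF receptor ligands among them include Hbegf, at −2.68 ± 0.38 and −3.20 ± 0.39, and Tgfa, at −1.38 ± 0.17 and −1.29 ± 0.17.

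Several markers of the cells known to make these proteases were also lower, and their part in the results was not tested. In bulk tissue, fewer cells of a type and less RNA per cell cannot be told apart. The shares over all genes tested were 23.4% lower and 22.4% higher in the siRNA arm, and 22.5% lower and 21.3% higher in the mASO arm. Of 12 stellate cell and myofibroblast markers, 8 fell and 2 rose in the siRNA arm and 6 fell and 3 rose in the mASO arm, and their sum ran from 184 to 209 CPM in siSTAT3, against 530.1 to 652 in siCntrl, and from 195 to 271 CPM in mASO STAT3, against 419.9 to 638 in mASO Scrbl. The smooth muscle genes Acta2 and Tagln carried most of that difference, with 5.75 to 7.71 CPM in siSTAT3, against 241 to 367 in siCntrl, and 6.71 to 9.45 CPM in mASO STAT3, against 235 to 364 in mASO Scrbl. The other 10 markers summed to 177 to 201 CPM in siSTAT3, against 235 to 338 in siCntrl, and to 187 to 261 CPM in mASO STAT3, against 184 to 273 in mASO Scrbl, with overlap in the mASO arm. Among them the stellate cell genes Lrat, Reln and Colec11 rose in the mASO arm, by 1.15, 1.10 and 1.41. In the siRNA arm Reln and Colec11 rose as well, by 0.64 and 0.53, while Lrat, at 0.40, did not pass. Of 13 tested macrophage and monocyte markers, 7 fell and 1 rose in the siRNA arm and 4 fell and 2 rose in the mASO arm, with sums of 563 to 699 CPM in siSTAT3, against 1281 to 2426 in siCntrl, and of 580.1 to 674 CPM in mASO STAT3, against 992 to 1909 in mASO Scrbl. Most of that difference was Spp1, which cholangiocytes also make, with 69.0 to 121 CPM in siSTAT3, against 502 to 1347 in siCntrl, and 53.5 to 82.7 CPM in mASO STAT3, against 561 to 1292 in mASO Scrbl. Without it the other 12 summed to 494 to 616 CPM in siSTAT3, against 466 to 1079 in siCntrl, and to 497 to 596 CPM in mASO STAT3, against 431 to 734 in mASO Scrbl, with overlap in both arms. None of these markers was at 0 in any whole group.

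Neutrophil markers fell for 5 of 12 genes in the siRNA arm and 6 of 12 in the mASO arm. Their sum, mostly Lcn2, which other cells also make, ran from 58.4 to 142 CPM in siSTAT3, against 1482 to 3129 in siCntrl, and from 63.8 to 85.3 CPM in mASO STAT3, against 271 to 863 in mASO Scrbl. Without Lcn2 the other 11 summed to 17.5 to 66.2 CPM in siSTAT3, against 53.9 to 105 in siCntrl, with overlap. In the mASO arm they summed to 21.9 to 24.3 CPM in mASO STAT3, against 36.6 to 95.6 in mASO Scrbl, without overlap. Cholangiocyte markers fell for 5 of 6 tested genes in the siRNA arm and 4 of 6 in the mASO arm, with sums of 87.8 to 138 CPM in siSTAT3, against 548 to 1385 in siCntrl, and of 73.0 to 99.6 CPM in mASO STAT3, against 594 to 1337 in mASO Scrbl, mostly Spp1. Without Spp1 the other 7 summed to 13.9 to 18.8 CPM in siSTAT3, against 35.1 to 46.6 in siCntrl. In the mASO arm they summed to 16.8 to 19.5 CPM in mASO STAT3, against 32.6 to 44.5 in mASO Scrbl. Endothelial markers fell for 6 of 10 genes in the siRNA arm, and 3 fell and 1 rose in the mASO arm. Their sums ran from 161 to 245 CPM in siSTAT3, against 222 to 281 in siCntrl, and from 163 to 278 CPM in mASO STAT3, against 205 to 254 in mASO Scrbl. Of 10 tested lymphocyte markers, 2 fell and 1 rose in the siRNA arm and 3 rose in the mASO arm, with sums under 10 CPM in every library. Hepatocyte markers rose for 7 of 10 genes in the siRNA arm and 9 of 10 in the mASO arm, and none fell. These counts stand beside 23.4% lower and 22.4% higher of all genes tested in the siRNA arm. In the mASO arm the shares were 22.5% lower and 21.3% higher.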

How the data were processed

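Liver mRNA of 12 BALB/c libraries was sequenced with a stranded Illumina kit, per the labels' protocols. The table used holds raw counts by gene symbol as the authors deposited them, not normalized. A second deposited table of normalized values was not used. The submitters' processing notes list TopHat and Cufflinks, with neither role nor version. The build, annotation, counting tool and use of strand were not given in the sources used here, and levels of overlapping genes and close paralogs are uncertain.

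All 12 libraries entered 1 fit by group in edgeR (4.0.16, under R 4.3.3), with edgeR's filter (minimum count 10, minimum total 15, which kept 15720 genes and removed 9820), TMM scaling and the robust quasi-likelihood test with 8 residual degrees of freedom, with Benjamini-Hochberg adjusted p under 0.05 taken as a call. The biological coefficient of variation was 0.247. TMM factors ran from 0.804 to 0.901 in the libraries labelled STAT3 and from 1.11 to 1.27 in the controls. SE is the log2 fold change divided by the square root of F. For genes with 3 or fewer counts in a group, ratios carry exact 95% counting intervals, and a count of 0 is taken as allowing 3 counts over the group. Depth was 39844158 to 67791159 counts per library. Every member could be named, with values by library for TIMPs and for called members reaching 1 CPM in a group, and from each other list up to 4 genes with the smallest p in an arm. A gene this rule names is not reported here. Members and lists were chosen with earlier results of these data known. Alternatives were DESeq2 (1.42.0) size factors and Wald test, limma voom (3.58.1), library totals alone, no filter, a filter of 1 CPM in 3 libraries, a replicate block, a fit restricted to the compared libraries, and omission of each library in turn. The procedure was tested on simulated data. Chi-square per degree of freedom between libraries of a group ran from 49.9 to 218, so none was taken for a duplicate. Promoter windows and gene names came from RefSeq and exon lengths from GENCODE.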

Additional observations from a re-analysis of the deposited data

How the results depend on the processing

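No member reversed its direction with a call under any alternative. Of 1299 alternative values of the 47 members, 1230 kept direction and side of the threshold, 55 lost the call and 14 gained it. In the siRNA arm 29 of 35 called members kept the call under every alternative that gave a value, and in the mASO arm 24 of 33 did. Counts of members called stayed within 1.5 times those reported. Leaving out 1 library gave 28 to 31 lower and 4 higher members in the siRNA arm, and 22 to 27 lower and 4 to 6 higher members in the mASO arm. With the replicate block, 29 were lower and 4 higher in the siRNA arm, and 26 lower and 4 higher in the mASO arm, and 0 passed for the difference of the arms or between the controls. Deviations from the group means of same-numbered libraries correlated at −0.238 to 0.187, so replicate numbers were not treated as a pairing. In a library labelled STAT3, 3 counts are about 0.1 CPM or less, so levels of Mmp3, Mmp10 and the 22 untested members are limited by depth.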
